A study of Mus musculus with 9 samples.

Results

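Activated hepatic stellate cells (aHSCs) with high WT1 were compared with aHSCs of intermediate WT1 sorted from the same kind of fibrotic liver. The comparison used 6 of the 9 samples of the study, 3 per group, and every gene probe of the array that passed a filter on low values. By the labels all mice were male, of strain C57/Bl6 and genotype WT1GFP/+, a knock-in that puts green fluorescent protein (GFP) under the control of WT1 on 1 of its alleles, and every group carried it. Fibrosis was produced by repeated intraperitoneal carbon tetrachloride (CCl4), and GFP-high cells (WT1-high) and GFP-low cells (WT1-intermediate) were sorted directly from the buoyant, lipid-bearing cell fraction of the injured livers. The remaining 3 samples, used here for spread and for reference levels, were GFP-negative cells of the same genotype sorted after 7 days of activation on plastic (WT1-negative). Origin and WT1 status cannot be told apart in any contrast with that group. The sort read GFP and not WT1 protein, and no stellate cell marker was part of the sort of these cells as the sources describe it.

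WT1 is a zinc-finger transcription factor of the embryonic mesothelium and of the mesenchyme that derives from it, and it is kept in adult mesothelium and in podocytes. Hepatic stellate cells are the vitamin A-storing pericytes of the sinusoid, and on injury they become contractile, collagen-secreting myofibroblasts. They share the sinusoid with resident macrophages (Kupffer cells) and with fenestrated endothelium, and recruited macrophages gather around them in scars.

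RNA of each sample was hybridised to a bead array of its own (Illumina MouseWG-6 v2.0). Arrays are called by group and replicate number (WT1-high 1, 8 and 29, WT1-intermediate 1, 8 and 30), and values are always given in that order. Levels are normalized log2 intensities, so that a difference of 1 is a 2-fold change, and differences are WT1-high minus WT1-intermediate. A probe was called where limma's adjusted p was under 0.05 over all 20573 probes tested. Mean raw signal was 231 to 289 on WT1-high and 147 to 221 on WT1-intermediate arrays, and the mean housekeeping control was 5855 to 6722 against 3531 to 5419, so the groups did not overlap in housekeeping signal. The part of this gap in the results was not tested beyond the scalings given with the limits.

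The reporter itself followed the gate. The eGFP probe read 10.69, 10.53 and 10.48 on WT1-high arrays, 8.63, 8.95 and 8.46 on WT1-intermediate arrays, and 4.80 on average on WT1-negative arrays. The WT1-high level was 3.70-fold the WT1-intermediate level (log2 difference 1.89 ± 0.16 SE, n = 3 per group, limma adjusted p = 0.00015). Since the sort used GFP, this checks the labels and is no result. Wt1 itself was not analysed here, as no probe had that symbol.

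The stellate cell label was checked against 22 identity genes. Gfap, Lhx2, Ntm and Rgs5 were detected on no in vivo array, and Lrat, the enzyme that esterifies retinol for storage, was not among the 17 genes that could be tested. Vim, Ecm1 and Cygb had levels above 10 on every in vivo array. The summed level of the 17 tested genes was 11612 to 13805 in WT1-high, 9689 to 12723 in WT1-intermediate and 11509 to 13701 in WT1-negative cells, so the groups overlapped. Mesothelial markers were high in both in vivo groups and low in culture, with summed levels of 56772 to 64077, 42195 to 49492 and 1909 to 2672 over 18 genes. Several stellate cell markers were thus not detected on these arrays, and both in vivo groups carried mesothelial markers that the cultured cells lacked or held at low levels.

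By limma, 730 probes (3.55%) were called, 186 higher (0.904%) and 544 lower (2.64%) in WT1-high cells. The median change of the called probes was 0.85 for those higher and -1.21 for those lower, and 58 fell by at least 4-fold where 5 rose that much. Arrays with the same number in the deposited column names deviated together, and with these pairs as a fixed block 1656 probes were called, 603 higher and 1053 lower, with all 730 among them. Counts of list members under the block, given below, are to be read beside these totals out of 20573 probes. Since the groups did not overlap in any of the 730, each of these probes necessarily moved in the same direction in every pair. The median difference of the higher probes was 1.01 in pair 1, 0.79 in pair 8 and 0.83 in the pair of WT1-high 29 with WT1-intermediate 30. Those of the lower probes were -1.42, -1.09 and -1.19. Both classes of probe thus showed their largest median difference in pair 1. Among 252 called gene symbols with several tested probes, all tested probes had the same sign in 229, and no symbol was called in both directions. The groups did not overlap in any of the 730, as in 20.1% of all tested probes.

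**Figure D1:**
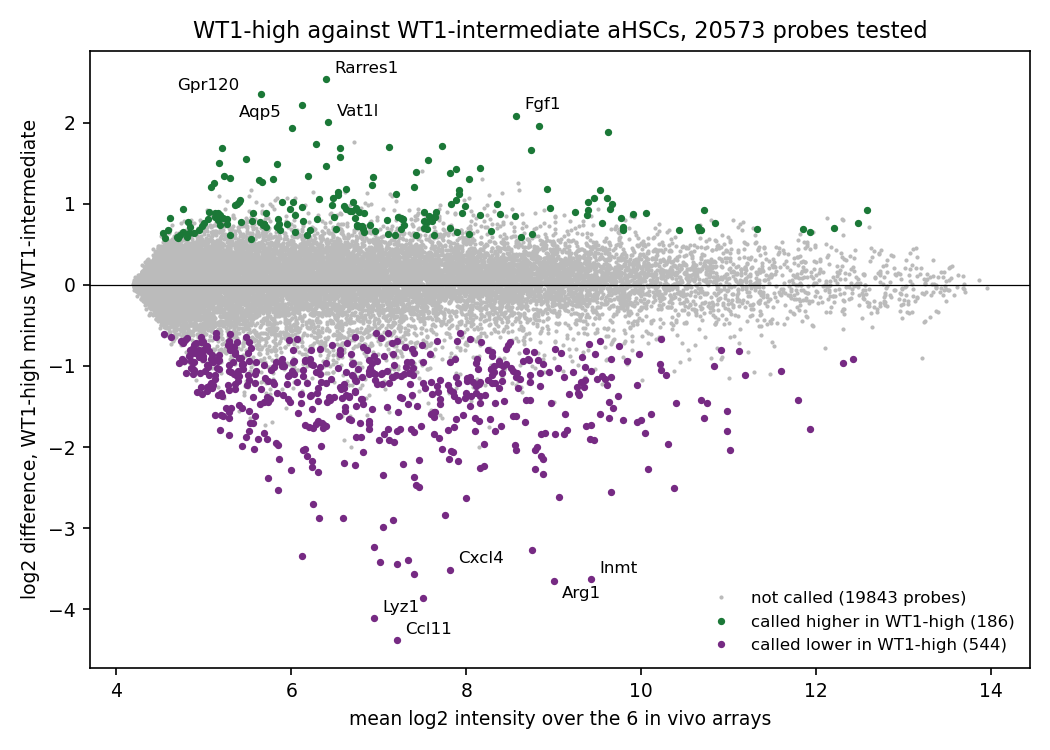
Log2 difference (WT1-high minus WT1-intermediate) of each of the 20573 tested probes against its mean log2 intensity over the 6 in vivo arrays, with called probes coloured and the 5 largest rises and falls (1 probe a gene) named. The 544 falls reach -4.38 while the 186 rises reach 2.54.

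The largest fall was that of Ccl11, the chemokine eotaxin that draws eosinophils (probe ILMN_2647757, chromosome 11). It read 4.61, 5.30 and 5.16 in WT1-high cells and 9.02, 9.69 and 9.49 in WT1-intermediate cells, with 5.13 on average in WT1-negative cells. The intermediate level was thus alone in being high, 20.8-fold that of WT1-high cells (log2 difference -4.38 ± 0.24 SE, adjusted p = 6.6e-06). A dimmer Ccl11 probe gave a smaller difference of -2.52 (adjusted p = 0.001). Arg1, the arginase that makes ornithine and marks alternatively activated macrophages, read 6.92, 6.85 and 7.76 against 11.07, 10.25 and 11.16. Its intermediate level was 12.6-fold higher (-3.65 ± 0.28 SE, adjusted p = 8.7e-05), and WT1-negative cells were higher still at 12.97. Inmt, a methyltransferase of indolamines, read 7.38, 7.41 and 8.07 against 11.26, 11.06 and 11.42, and 4.33 in WT1-negative cells. It showed a 12.4-fold difference (-3.63 ± 0.19 SE, adjusted p = 6.6e-06).

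Further genes were among the 15 largest falls. Pi16, a peptidase inhibitor that marks adventitial fibroblasts, read 6.46, 6.93 and 7.97 against 10.08, 9.94 and 11.15. Pcolce2, an enhancer of procollagen C-proteinase, read 4.95, 5.07 and 6.42 against 8.74, 8.53 and 9.51, and Gdf10, a BMP-family ligand, read 5.39, 5.77 and 5.73 against 8.80, 9.28 and 9.01. Of these, Pi16 had the narrowest gap between the groups, 1.97 log2 units. Dpep1, a membrane dipeptidase that cleaves leukotriene D4, read 5.33, 4.87 and 5.71 against 8.70, 8.38 and 9.07. Osr2, a zinc-finger factor of mesenchymal development, and Pla1a, a phosphatidylserine-specific phospholipase, differed by -2.87 and -2.98 on the log2 scale. Pi16, Pcolce2 and Gdf10 differed by -3.27, -3.45 and -3.40 (SE 0.38, 0.38 and 0.36, adjusted p = 0.001, 0.00084 and 0.00071). Over the 15 largest falls, differences ran from -2.55 to -4.38 and adjusted p from 6.6e-06 to 0.037.

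Among the rises, Rarres1, a gene induced by retinoic acid, was the largest (ILMN_2664202, chromosome 3). It read 7.70, 8.05 and 7.24 in WT1-high cells, 4.82, 5.62 and 4.93 in WT1-intermediate cells and 7.88 on average in WT1-negative cells, so that here it was the intermediate group that was low. The difference was 5.82-fold (2.54 ± 0.28 SE, adjusted p = 0.00089). Gpr120 (Ffar4), a receptor for long-chain fatty acids, read 6.99, 6.56 and 6.92 against 4.30, 4.77 and 4.35 and was detected on 1 of the 3 WT1-intermediate arrays. It was 5.10-fold higher (2.35 ± 0.17 SE, adjusted p = 6.6e-05). Aqp5, a water channel of secretory epithelia, read 7.51, 7.32 and 6.86 against 5.17, 5.01 and 4.86 and was 4.67-fold higher (2.22 ± 0.18 SE, adjusted p = 0.00013). Neither Gpr120 nor Aqp5 was detected on any WT1-negative array.

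Fgf1, the acidic fibroblast growth factor, read 9.96, 9.71 and 9.18 against 7.20, 7.91 and 7.48, a 4.24-fold rise (2.08 ± 0.23 SE, adjusted p = 0.00089), and a dimmer Fgf1 probe gave 0.80 (adjusted p = 0.053). Lgals7, an epithelial galectin, read 10.05, 9.20 and 9.47 against 7.81, 7.91 and 8.02. Stmn2, a tubulin-binding stathmin best known from neurons, read 8.43, 8.20 and 8.39 against 6.55, 6.93 and 6.90, and Tesc, a calcium-binding partner of a sodium-proton exchanger, read 7.26, 7.55 and 7.41 against 5.82, 5.63 and 5.69. No array of one group reached the other in any of them. Tmem184a, a membrane protein described as a heparin receptor, was detected on no WT1-intermediate array, and its WT1-high mean was at least 2.83-fold higher (means 6.06 and 4.37, adjusted p = 0.00084). Such a bound sets the brighter mean against, on each array of the other group, the lowest signal of a detected probe or the probe's own signal, whichever was higher. The Tmem184a probe passed the filter on low values only through the 3 WT1-high arrays, so its adjusted p is no independent support.

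Enpp2 (autotaxin, which makes lysophosphatidic acid) and Col24a1, a minor fibrillar collagen, rose by 1.96 and 1.58, but the calls were not stable. Leaving out any of 7 arrays ended the call of Enpp2 (WT1-high 1 and 8, WT1-intermediate 1 and 30, and each WT1-negative array), with adjusted p up to 0.13. For Col24a1 6 arrays did so (WT1-high 8 and 29, WT1-intermediate 1 and 30, WT1-negative 3 and 14), with adjusted p up to 0.11. Vat1l, A730017C20Rik, Sez6l and Gng13 differed by 2.00, 1.93, 1.74 and 1.55 and, with eGFP, made up the rest of the 15 largest rises.

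**Figure D2:**
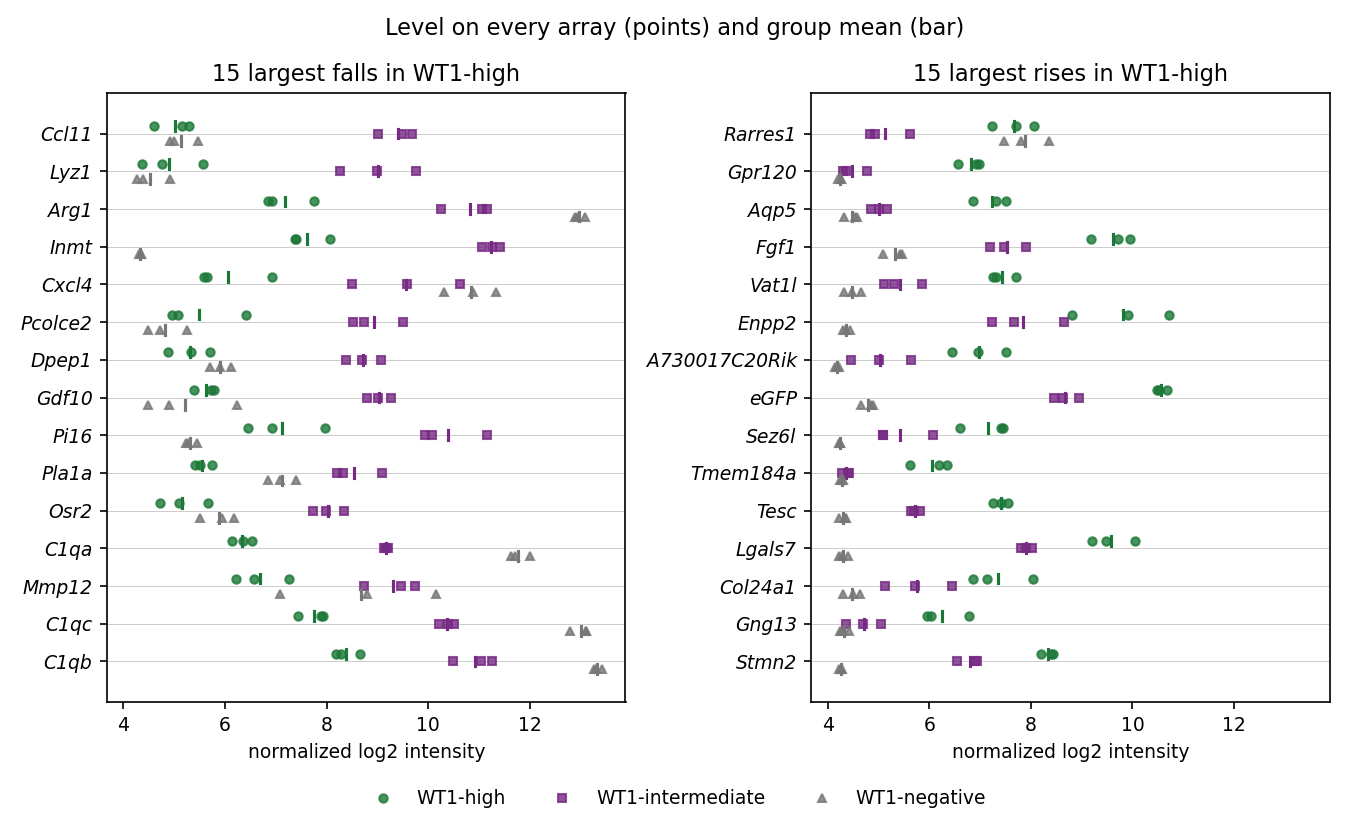
Normalized log2 intensity on each of the 9 arrays (points) and group means (bars) for the 15 largest falls and 15 largest rises of WT1-high against WT1-intermediate cells, the chosen genes being those whose in vivo groups do not overlap. In the falls the WT1-negative mean lies near WT1-high for Ccl11 (5.13 beside 5.02) and above WT1-intermediate for Arg1, Cxcl4, C1qa, C1qb and C1qc, while in the rises it lies below WT1-intermediate for all but Rarres1.

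Called probes differed in how often cultured cells had them. Of the 186 higher probes, 107 (57.5%) were detected on at least 2 WT1-negative arrays, against 474 of 544 lower probes (87.1%) and 83.3% of probes not called. This is a description, as the 9 arrays share 1 fit. On detection alone, 136 gene probes were detected on all 3 WT1-high arrays and on no WT1-intermediate array, of which 11 were called, and 78 had the reverse pattern, of which 24 were called (0.30% and 0.17% of gene probes). At a detection p under 0.01 these numbers were 93 and 89. Detection on all 3 arrays of a group was itself enough to pass the filter, so the 11 and 24 calls are no independent support. The chemokine scavenger Ackr2 (Ccbp2 on the array) was in the second set at 4.27, 4.34 and 4.47 against 6.32, 5.71 and 6.61, and the WT1-intermediate mean (6.21) exceeded the WT1-high mean (4.36) by at least 3.17-fold (adjusted p = 0.003).

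Macrophage markers were lower in WT1-high cells throughout the list. Of 30 genes 29 could be tested, all 29 had a negative difference and 20 (69%) were called lower, against 2.64% of all tested probes. The median difference was -1.62, beside 0.05 for all tested probes. The chains of the complement protein C1q, made by tissue macrophages, gave the smallest adjusted p values of the list. C1qa read 6.14, 6.54 and 6.35 against 9.22, 9.17 and 9.14, a 7.12-fold difference (-2.83 ± 0.16 SE, adjusted p = 7.3e-06), and WT1-negative cells were above both at 11.78. C1qc and C1qb, which lie next to it on chromosome 4, differed by -2.62 and -2.55 (adjusted p = 4.5e-05 and 0.00011). The F4/80 gene Adgre1 (Emr1 on the array) read 7.53, 8.16 and 7.74 against 10.41, 9.54 and 9.90, a difference of -2.14 (adjusted p = 0.0017). Of its dimmer probes 1 gave -2.23 (adjusted p = 0.00084) and the other -0.37 (adjusted p = 0.44). Lyz1 (lysozyme) read 4.36, 4.76 and 5.56 against 8.27, 9.76 and 8.98. No WT1-high array overlapped the other group in any of these, as in all 730 called probes.

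Kupffer cell genes were among those with lower levels. Timd4 and Cd163, receptors for phosphatidylserine and for haemoglobin complexes, fell by 1.56 and 1.29, Vsig4, a complement receptor, by 2.05, and Clec4f, a lectin of Kupffer cells, differed by -1.34 without being called (adjusted p = 0.056). Trem2 and Gpnmb, which mark lipid-laden and scar-associated macrophages, fell by 1.81 and 2.51. The receptor tyrosine kinase Csf1r, on which macrophages depend, read 7.88, 8.38 and 7.68 against 9.68, 9.97 and 8.53 (-1.41, adjusted p = 0.034), and leaving out any array but WT1-intermediate 30 ended its call, with adjusted p up to 0.13. The calls of Vsig4, Timd4 and Cd163 each ended without WT1-high 8, that of Timd4 also without WT1-intermediate 1, and that of Vsig4 also without WT1-high 1, WT1-intermediate 8 or 30 or WT1-negative 3 or 14 (adjusted p up to 0.093). The pan-leukocyte gene Ptprc differed by -0.81 (adjusted p = 0.066) and the monocyte receptor Ccr2 was detected on no in vivo array.

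The summed level of the 29 macrophage genes was 11135 to 16460 in WT1-high, 31309 to 52420 in WT1-intermediate and 88257 to 91710 in WT1-negative cells. In such bulk samples fewer cells of a type and less RNA per cell cannot be told apart. The part of this list in the falls of inflammatory genes described next was not tested. With the pairs as a block, 28 of the 29 genes were called lower, where the block called 1053 of all 20573 tested probes lower. Under median scaling over all gene probes 9 of the 29 were called lower, with a median of -1.08.

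**Figure D3:**
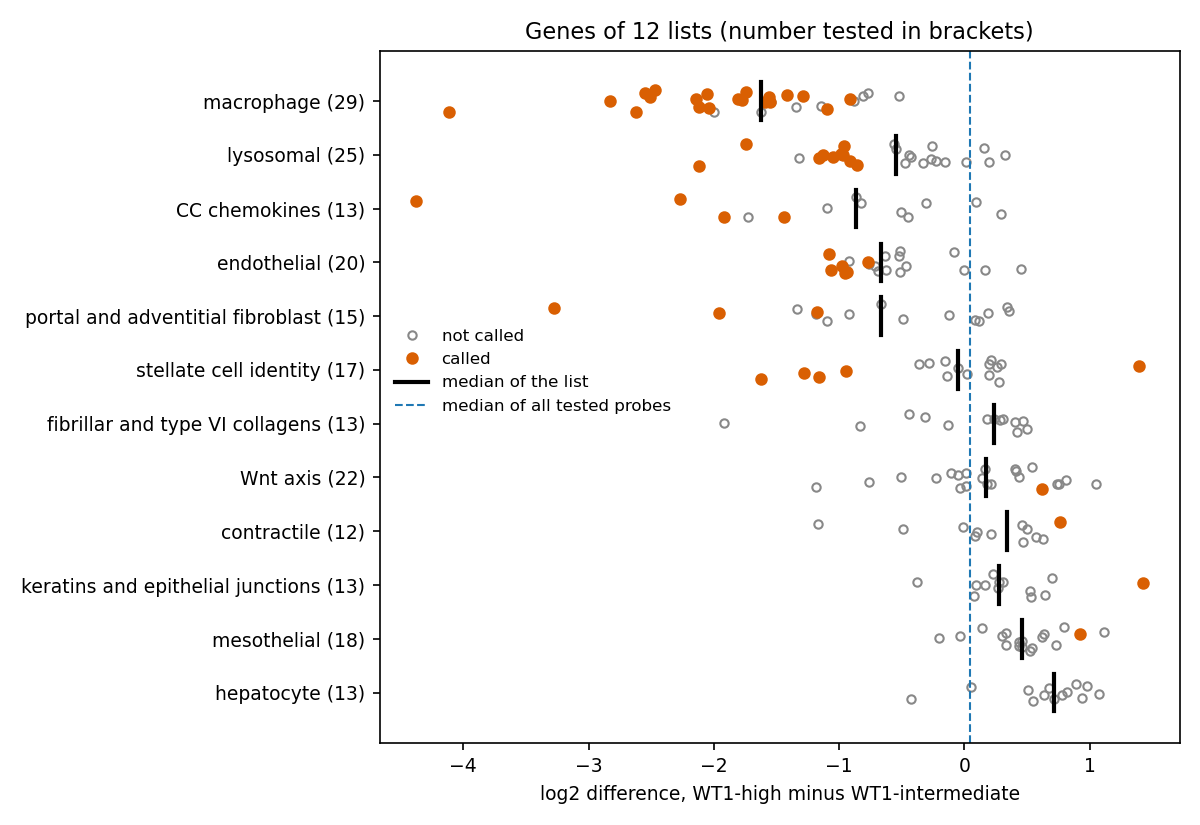
Log2 difference (WT1-high minus WT1-intermediate) of each tested gene in 12 lists, with called genes filled, the median of each list as a bar and the median of all tested probes (0.05) as a dashed line. The macrophage median lies furthest to the left, with 20 of 29 called and none above 0, whereas 12 of 13 hepatocyte and 16 of 18 mesothelial genes lie to the right of 0 with 0 and 1 called.

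Lysosomal genes were lower as a group, with 21 of 25 negative, 10 (40%) called lower (2.64% of all tested probes) and a median of -0.54, which became 0.05 under median scaling over all gene probes, where all tested probes shifted to 0.45 and none of the 25 was called. Ctsd, a cathepsin found in most cells, read 5.74, 6.03 and 5.97 against 7.01, 6.75 and 6.88 (-0.97, adjusted p = 0.0078). Psap, the saposin precursor, read 11.91, 11.89 and 11.68 against 13.05, 12.78 and 12.53 (-0.96, adjusted p = 0.0088). The cathepsins Ctsh, Ctsc, Ctss and Ctsz, the glycosidases Gusb and Hexa, the lipase Lipa (Lip1 on the array) and the macrophage glycoprotein Cd68 completed the 10. Single arrays ended the calls of Ctsc (WT1-high 29, WT1-intermediate 1), Ctss (WT1-high 1 and 29, WT1-intermediate 1), Hexa (WT1-high 1 and 8, WT1-intermediate 1), Ctsz and Lipa (7 arrays each, WT1-high 8 and 29, WT1-intermediate 1 and 8 and WT1-negative 3 and 14 in both), with adjusted p up to 0.14.

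Of the CC chemokines 4 of 13 tested were called lower and none higher, against 2.64% and 0.904% of all tested probes. After Ccl11 came Ccl9 with 9.07, 9.14 and 8.62 against 11.82, 11.04 and 10.77 (-2.27, adjusted p = 0.00084), and Ccl6 with 6.19, 6.35 and 5.94 against 8.54, 7.83 and 7.85 (-1.92, adjusted p = 0.00086). Both are myeloid chemokines of rodents. Ccl19, the CCR7 ligand of lymphoid stroma, fell by 1.44 and was at 5.13 in WT1-negative cells, beside 12.28 for Ccl9. The chemokine of platelets and macrophages, Pf4 (Cxcl4 on the array), read 5.65, 5.60 and 6.93 against 10.63, 8.50 and 9.58, an 11.4-fold difference (-3.51 ± 0.50 SE, adjusted p = 0.0038). WT1-intermediate replicate 1 was the highest of its group for Ccl9, Ccl6 and Pf4 and the lowest for Ccl11.

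Complement genes had 5 of 18 called lower, beside 2.64% of all tested probes. Beyond the C1q chains, properdin (Cfp), which stabilizes the alternative pathway convertase, read 9.07, 9.38 and 9.04 against 11.07, 10.88 and 10.54 (-1.67, adjusted p = 0.00067). C7, a part of the membrane attack complex, read 4.55, 4.51 and 4.80 against 6.07, 6.11 and 7.07 (-1.80, adjusted p = 0.0026). Cfp was at 12.71 in WT1-negative cells and C7 at 4.24, so the 2 falls had opposite levels in culture.

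Integrin subunits were called in both directions. Itgb2, the beta chain of leukocyte integrins, read 5.33, 5.81 and 5.44 against 7.65, 7.16 and 7.01 (-1.75, adjusted p = 0.0029). Itgb5, the partner of alpha v, read 9.22, 9.47 and 9.41 against 10.45, 10.23 and 10.23 (-0.94, adjusted p = 0.0053). Itgb4, the hemidesmosome integrin of epithelia, was higher with 9.67, 10.31 and 10.01 against 8.40, 9.32 and 9.08 (1.06, adjusted p = 0.035), and its call ended without WT1-high 8 or 29, WT1-intermediate 1 or any WT1-negative array (adjusted p up to 0.14).

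Receptors and enzymes of inflammation were called in both directions. Il10ra, the receptor for interleukin 10, Il1a and the endosomal receptors Tlr13 and Tlr7 fell by 1.38, 1.01, 1.65 and 1.19. Tlr5, the flagellin receptor, rose by 0.75 (adjusted p = 0.026). Of 30 interleukin and receptor genes tested, 15 were positive and 15 negative (median -0.006), and 3 were called lower. Of 15 Toll-like receptors 2 were called lower and 1 higher (median -0.43). The shares of all tested probes were 2.64% lower and 0.904% higher. In the leukotriene and prostaglandin list 5 of 15 were called lower and 1 higher, beside 2.64% and 0.904% of all tested probes. In the same list 8 of the 15 were positive, with a median of 0.17. Alox5ap, which presents arachidonate to 5-lipoxygenase, read 9.60, 9.57 and 8.80 against 11.46, 10.81 and 10.46 (-1.59, adjusted p = 0.0088). Ltc4s, the leukotriene C4 synthase, Tbxas1, the thromboxane synthase, and Hpgds (Ptgds2 on the array), the haematopoietic prostaglandin D synthase, fell by 1.90, 2.34 and 1.24. Alox5 itself was detected on no WT1-high array, and its WT1-intermediate mean was at least 1.77-fold that of WT1-high cells (adjusted p = 0.03), but a dimmer Alox5 probe gave 0.17 (adjusted p = 0.62). Ptgis, the prostacyclin synthase of vessels and mesenchyme, went the other way with 12.82, 12.97 and 12.79 against 11.79, 12.12 and 12.39 (0.76, adjusted p = 0.035). The last 2 calls each ended on leaving out single arrays, 5 for Alox5 (WT1-high 1, 8 and 29, WT1-intermediate 8 and 30) and 7 for Ptgis (all but WT1-intermediate 30 and WT1-negative 11), with adjusted p up to 0.13. The calls of Tlr7 (all but WT1-intermediate 30 and WT1-negative 11) and Tlr5 (the 6 in vivo arrays) ended likewise, with adjusted p up to 0.11.

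The lists of other immune lineages held no calls, beside 3.55% of all tested probes. None of 11 neutrophil, 9 dendritic cell and MHC class II, 10 T and NK cell and 4 B cell genes tested was called, by limma, nor any of 19 interferon-stimulated genes. In this order 9, 7, 7, 4 and 12 genes had a negative difference. The medians were -0.42, -0.13, -0.07, -0.21 and -0.12. Lists this short can hold no call at that share, so the absence of calls shows no lack of difference. MHC class II genes were high in both in vivo groups, where Cd74 read 12.15, 12.60 and 12.21 against 11.55, 12.61 and 11.70, and low in WT1-negative cells at 5.97. Their summed level was 12496 to 15784 against 11469 to 17738. S100a8, a neutrophil protein, read 10.47, 9.23 and 9.80 against 10.74, 10.68 and 10.09 (-0.67, adjusted p = 0.34). With the pairs as a block, 1 neutrophil, 1 MHC class II and 1 interferon-stimulated gene were called lower.

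Endothelial genes were lower by smaller steps. Of 20 tested, 17 were negative and 6 (30%) were called lower (2.64% of all tested probes) with a median of -0.66, and under median scaling over all gene probes none of them was called lower. Eng, a co-receptor for TGF-beta, read 6.17, 6.20 and 6.26 against 7.02, 7.38 and 7.16 (-0.98, adjusted p = 0.006). Robo4, Egfl7, Fcgr2b, Tek and Stab2 fell by 1.06, 0.95, 1.08, 0.77 and 0.93, and leaving out WT1-high 1 or WT1-high 8 ended the call of each of these 5. Dimmer probes gave 0.21 and -0.58 for Egfl7 (adjusted p = 0.51 and 0.11) and -0.05 and -1.07 for Fcgr2b (adjusted p = 0.92 and 0.031). Without WT1-high 1 or WT1-high 8 the list kept 1 call, and without WT1-intermediate 1, 8 or 30 or WT1-negative 14 it kept 3. With the pairs as a block it had 10 called lower, where the block called 1053 of all 20573 tested probes lower. Kdr was detected on no in vivo array. The summed endothelial level was 5115 to 5564 against 5352 to 6950, so the groups overlapped in the sum.

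Several genes of stellate and portal mesenchyme were lower in WT1-high cells. Tcf21, a basic helix-loop-helix factor of stellate cells, read 4.77, 4.57 and 4.98 against 6.38, 6.34 and 6.46 (-1.62, adjusted p = 0.0032). Pdgfrb, the PDGF receptor of pericytes, read 4.99, 4.98 and 5.08 against 6.13, 6.23 and 6.54 (-1.28, adjusted p = 0.0055). The related Pdgfra did not differ by the test, with 9.02, 9.92 and 9.05 against 8.92, 9.56 and 9.45 (0.02, adjusted p = 0.98). Hgf and Ednrb, the hepatocyte growth factor and an endothelin receptor, fell by 1.16 and 0.95 at adjusted p = 0.041 and 0.049, while dimmer probes gave -0.47 for Hgf and -0.02 and -0.70 for Ednrb without a call. Des, the muscle intermediate filament used to find stellate cells in rodents, was higher by 1.40. The calls of Hgf, Ednrb and Des each ended without any of 7 or 8 arrays, WT1-high 8 and 29 and WT1-intermediate 1 and 8 among them, with adjusted p up to 0.18. Over the 17 genes, 4 were called lower and 1 higher, against 2.64% and 0.904% of all tested probes. The median was -0.06 and changed sign under median scaling over all gene probes (0.25).

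Serpine2, an inhibitor of thrombin and plasminogen activators, read 6.20, 6.00 and 6.93 against 8.42, 8.03 and 9.15, a fall of 2.16 (adjusted p = 0.0029). The nuclear bile acid receptor Nr1h4 rose by 0.83 (adjusted p = 0.036), and its call ended without any array but WT1-intermediate 8 and WT1-negative 11 (adjusted p up to 0.14).

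Portal and adventitial fibroblast genes gave 3 calls of 15, all lower, beside 2.64% of all tested probes (median -0.66, or 0.04 under median scaling over all gene probes). Besides Pi16 they were Dpt, a dermatopontin of the matrix, with 8.90, 9.12 and 9.96 against 11.03, 11.17 and 11.65 (-1.96, adjusted p = 0.0024), and Ly6c1 with a fall of 1.17, whose call ended without any of 6 arrays (WT1-high 8 and 29, WT1-intermediate 1 and 8, WT1-negative 3 and 14, adjusted p up to 0.13). Clec3b and Mfap4 differed by -1.34 and -1.10 without being called. The pairs as a block gave 7 calls, all lower, where the block called 1053 of all 20573 tested probes lower. The summed level was 9772 to 11699 in WT1-high and 12947 to 19341 in WT1-intermediate cells.

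Calls among matrix genes differed by list. None of the 13 listed fibrillar and type VI collagens was called by limma (median 0.23), where 3.55% of all tested probes were called. With the pairs as a block 1 was called lower. Col24a1, called higher as given above, was not on this list. Col1a1 read 8.16, 9.13 and 8.93 against 7.95, 9.44 and 9.23 (-0.13 ± 0.37 SE, adjusted p = 0.89), and Col1a2 and Timp1 differed by 0.30 and 0.51 (adjusted p = 0.68 and 0.56). Small leucine-rich proteoglycans had no call among 8. The calls lay in other lists, with 3 of 16 elastic fibre, 3 of 20 matricellular and 1 of 21 basement membrane genes called lower. None of them was called higher, beside 2.64% lower and 0.904% higher of all tested probes. Their medians were -0.09, -0.10 and 0.12. Under median scaling over all gene probes no elastic fibre gene was called. Sparcl1, a counter-adhesive relative of SPARC, read 4.45, 4.59 and 4.60 against 6.50, 6.71 and 7.56 (-2.38, adjusted p = 0.00049) and was detected on 1 WT1-high array. Spp1 (osteopontin) read 9.72, 10.10 and 10.16 against 13.03, 11.00 and 12.04, a fall of 2.03 (adjusted p = 0.016), and its call ended without WT1-high 1 or WT1-high 8 (adjusted p up to 0.055). The microfibril protein Mfap2 and the basement membrane linker Nid1 fell by 1.14 and 1.03. Leaving out WT1-high 8 or 29 ended the call of Mfap2, and any of 7 arrays that of Nid1 (all but WT1-high 8 and WT1-intermediate 1, adjusted p up to 0.13). Emilin2, Mfap5 and Tnxb differed by -0.89, -1.08 and -1.02. Their calls ended without any of 6, 9 and 7 arrays, in this order (adjusted p up to 0.13). Dimmer Tnxb probes gave -0.91 and -0.93 with a call and -0.06 without (adjusted p = 0.87).

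Enzymes that degrade matrix were among the larger falls. Mmp13, a collagenase, read 5.97, 5.41 and 5.99 against 8.27, 7.81 and 7.46 (-2.06, adjusted p = 0.0048), but 2 dimmer probes of it gave -0.20 and -0.06. Mmp3 (stromelysin) read 7.44, 7.71 and 8.27 against 9.93, 9.25 and 10.23 (3.99-fold lower, adjusted p = 0.0048), and Adamts4, an aggrecanase, 6.18, 6.77 and 6.54 against 7.93, 8.57 and 8.43 (-1.82, adjusted p = 0.002). Mmp12, the elastase of macrophages, fell by 2.63 (adjusted p = 0.037), and leaving out any array except WT1-negative 3 or 11 ended its call (adjusted p up to 0.13). So 4 of 20 metalloproteinases and inhibitors were called lower and none higher, against 2.64% and 0.904% of all tested probes. A list of 7 fibrogenic genes that the study chose on these samples had 6 called lower, and for that reason its direction is no independent evidence.

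Growth factor axes held single calls. Igf1 read 7.26, 7.53 and 7.87 against 8.48, 8.85 and 8.91 (-1.20, adjusted p = 0.0076), while Fgf1 was higher as given above. Dimmer Igf1 probes gave -0.60 and -0.88 (adjusted p = 0.18 and 0.06). Wnt2, a Wnt ligand of endothelium and mesothelium, read 7.94, 7.82 and 8.06 against 7.41, 7.13 and 7.43 (0.62, adjusted p = 0.04), and leaving out any array but WT1-intermediate 30 ended its call (adjusted p up to 0.12). No member of the BMP (18 tested), Hedgehog (7) and Notch (10) lists was called by limma, beside 3.55% of all tested probes. With the pairs as a block 1 BMP gene was called higher and 1 Notch gene lower. Gdf10, the BMP-family ligand that was lower as given above, was not on the BMP list. Tgfb1, the main profibrotic ligand, read 6.91, 7.00 and 6.78 against 7.99, 7.75 and 7.27 (-0.78, adjusted p = 0.099), and its adjusted p was 0.044 without WT1-intermediate 30 and 0.028 with the pairs as a random block. In the Wnt list the pairs as a block gave 5 genes of 22 higher and 2 lower. Of all 20573 tested probes the block called 603 higher and 1053 lower.

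Mesothelial and epithelial genes leaned the other way, and how many were called depended on the scaling. Of 18 mesothelial genes 16 were positive and 1 (5.56%) was called higher, beside 0.904% of all tested probes, with a median of 0.46. Dmkn, a dermokine of epithelia, read 12.97, 13.07 and 13.08 against 11.74, 12.41 and 12.21 (0.92, adjusted p = 0.016), with adjusted p of 0.054 to 0.061 without WT1-high 8 or 29, and its dimmer probes gave 0.32 and 0.61 (adjusted p = 0.41 and 0.056). Msln (mesothelin) read 11.38, 11.66 and 11.79 against 10.82, 11.14 and 11.01 (0.62, adjusted p = 0.075, and 0.033 with the pairs as a block). Upk3b, a uroplakin, read 12.57, 13.15 and 12.40 against 11.51, 12.48 and 11.74 (0.80, adjusted p = 0.16, and 0.026 with the pairs as a block). The block gave 6 calls of the 18, all higher, where it called 603 of all 20573 tested probes higher. Of 13 keratins and junction genes 12 were positive, and Cldn3, a tight junction claudin, was the only call with 8.54, 8.64 and 8.62 against 6.97, 7.36 and 7.18 (1.43, adjusted p = 0.00085). This call made up 7.69% of the list, beside 0.904% of all tested probes called higher. Krt19 differed by 0.65 (adjusted p = 0.086, and 0.029 with the pairs as a block). Slpi and Rspo1 were the mesothelial genes with a negative difference (-0.20 and -0.03). Under median scaling 0 of the 18 mesothelial genes were called. Under median scaling over all gene probes 11 of the 18 and 8 of the 13 keratin and junction genes were called higher. Their medians were then 1.12 and 0.96, where that scaling called 2563 of all 20573 tested probes higher.

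Acta2, the smooth muscle actin of myofibroblasts, read 11.50, 11.05 and 11.14 against 10.23, 10.52 and 10.64 (0.76, adjusted p = 0.035) and 13.01 in WT1-negative cells. Its call ended without any of 7 arrays (all but WT1-intermediate 30 and WT1-negative 11), with adjusted p up to 0.13, and of its 3 dimmer probes 1 was called higher by 0.86 (adjusted p = 0.029), while the others gave 0.89 and 0.92 (adjusted p = 0.081 and 0.066). The other 11 contractile genes tested were not called.

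Genes of hepatocytes were positive in 12 of 13 with a median of 0.72, and none was called by limma. With the pairs as a block 3 were called higher, where the block called 603 of all 20573 tested probes higher. Alb, Fgb and Tat were detected on no in vivo array. The summed level of the 13 was 7436 to 12114 in WT1-high and 4665 to 7278 in WT1-intermediate cells. Its part in the rises was not tested.

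**Figure D4:**
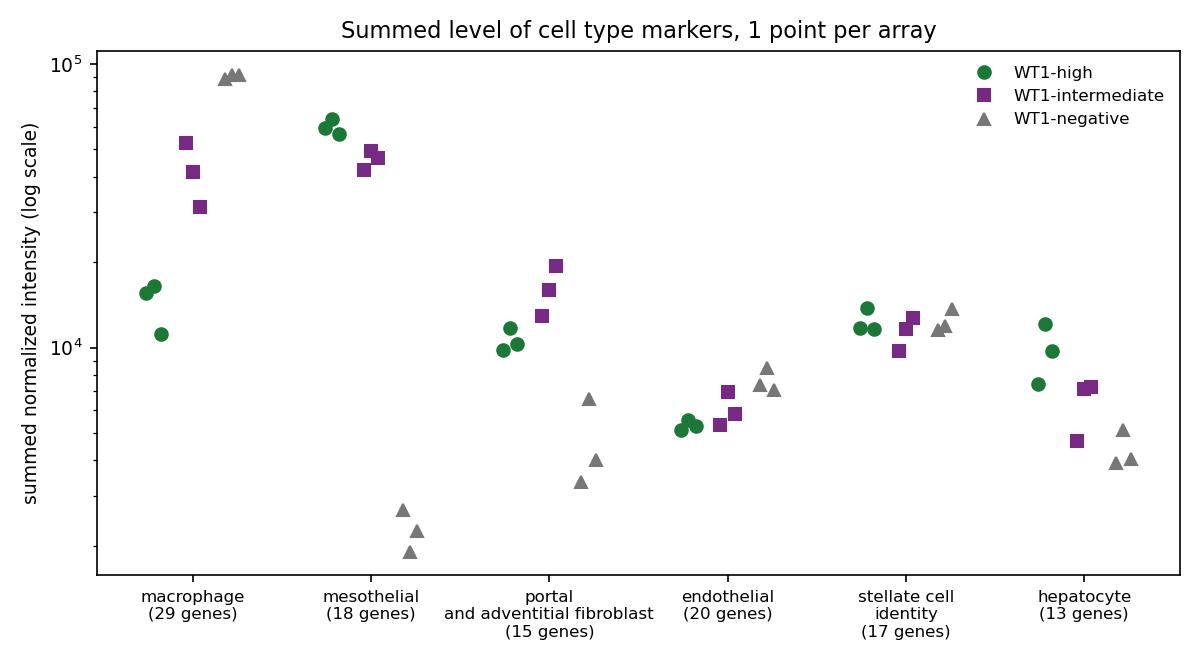
Summed normalized intensity (log scale) of the tested genes of 6 cell type lists on each of the 9 arrays. Macrophage sums rise from WT1-high (11135 to 16460) over WT1-intermediate (31309 to 52420) to WT1-negative cells (88257 to 91710), while mesothelial sums are high in both in vivo groups and stellate cell sums overlap in all groups.

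Of 13 lipid storage and fatty acid sensing genes tested, 2 were called higher and 2 lower. Of 19 retinoid genes 2 were called higher and 0 lower. All tested probes had shares of 0.904% higher and 2.64% lower. Beside Gpr120, Scd1, the stearoyl-CoA desaturase, was higher with 9.58, 9.82 and 9.65 against 8.47, 8.98 and 8.92 (0.89, adjusted p = 0.015). Lpl and Pparg, the lipoprotein lipase and the adipogenic nuclear receptor, fell by 1.80 and 1.72. Pparg had 5.44, 5.38 and 5.06 against 8.25, 6.57 and 6.23, with WT1-intermediate 1 far above its group. Rdh10, the retinol dehydrogenase that starts retinoic acid synthesis, rose by 0.99 together with Rarres1. Aldh1a2, which completes that synthesis, read 7.76, 7.63 and 7.68 against 6.11, 7.10 and 6.52 (1.11, adjusted p = 0.082, and 0.024 with the pairs as a random block, 0.047 without WT1-intermediate 8 and 0.029 without WT1-negative 11). Single arrays ended the calls of Pparg (each WT1-high and each WT1-negative array), Lpl (each WT1-high array, WT1-intermediate 1 and 8), Rdh10 (all but WT1-high 1 and WT1-intermediate 30) and Scd1 (WT1-high 8), with adjusted p up to 0.17.

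Promoter sequences of the called genes were searched for short motifs. RefSeq promoters (GRCm38.p6, 250 bases before to 50 after the start) were at hand for 91 of 118 genes called higher and 248 of 333 called lower that carried an Entrez number. The letters GAGGAAGT, a core bound by the myeloid factor PU.1, were searched on both strands. They occurred in 12.5% of the promoters of genes called lower (31 of 248), in 3.3% of those called higher (3 of 91), in 3.25% of all tested genes and in 3.29% of all 27025 promoters. Among the genes called lower the letters were in 2 of 14 promoters of the macrophage list (14.3%, C1qc and Ctss) and in 29 of 234 others (12.4%). The others included the leukocyte genes Cd53, Cd72, Csf2rb2, Fcgr4, Lilra6, Havcr2, Slamf9 and Vav1, and also Mmp12, Pf4, Spp1, Eng and Itga11. The 200 bases before the start are shown for the 4 of the 30 largest rises and falls in which a match was found (19 had a promoter), the first 3 lower and Ffar4 (Gpr120) higher in WT1-high cells, with the match on the opposite strand in capitals.
C1qc: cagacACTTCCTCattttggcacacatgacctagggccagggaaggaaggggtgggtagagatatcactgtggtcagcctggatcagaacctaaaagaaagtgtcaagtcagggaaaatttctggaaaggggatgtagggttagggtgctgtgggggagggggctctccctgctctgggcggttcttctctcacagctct
Mmp12: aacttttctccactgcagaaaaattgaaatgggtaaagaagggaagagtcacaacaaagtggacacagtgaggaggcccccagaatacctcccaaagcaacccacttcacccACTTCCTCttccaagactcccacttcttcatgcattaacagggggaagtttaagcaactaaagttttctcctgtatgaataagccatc
Pf4: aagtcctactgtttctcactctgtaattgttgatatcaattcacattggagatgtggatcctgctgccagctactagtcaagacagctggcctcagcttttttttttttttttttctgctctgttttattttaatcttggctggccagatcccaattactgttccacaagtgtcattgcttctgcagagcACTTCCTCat
Ffar4: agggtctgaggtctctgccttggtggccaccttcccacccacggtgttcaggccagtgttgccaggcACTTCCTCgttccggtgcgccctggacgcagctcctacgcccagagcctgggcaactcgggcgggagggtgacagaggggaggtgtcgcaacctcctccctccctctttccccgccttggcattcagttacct
The stretches lie for C1qc at chr4:136892915-136893114 on the reverse strand, for Mmp12 at chr9:7344197-7344396 on the forward strand, for Pf4 at chr5:90772235-90772434 on the forward strand and for Ffar4 at chr19:38096879-38097078 on the forward strand. The matches began 195, 88, 10 and 133 bases before the start in this order. Spi1, the gene of PU.1 (Sfpi1 on the array), read 5.12, 5.28 and 4.68 against 6.28, 6.02 and 5.42 (-0.88, adjusted p = 0.068). The letters TGANTCA of AP-1 were found in 12.1% of promoters of genes called lower, 3.3% of those called higher, 5.18% of all tested genes and 7.91% of all promoters. The letters GCGTGGGNG, bound by WT1 and by EGR factors, were found in 2.02%, 2.2%, 2.89% and 1.78%, and those of the TATA box, TATAAA, in 11.7%, 12.1%, 8.3% and 14.1%. A match in these letters describes the sequence and shows no binding.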

How the data were processed

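RNA of 9 samples was hybridised to Illumina MouseWG-6 v2.0 arrays. The authors deposited, per the file headers, summarised probe intensity values that were not normalized, with a detection p-value for each probe. They name limma, background correction on negative controls and quantile normalization, and the same steps were run here with limma 3.58.1 in R 4.3.3 (offset 16), followed by log2. A probe was tested if its detection p-value was under 0.05 on at least 3 of 9 arrays. The linear model held all 3 groups, with Benjamini-Hochberg adjustment over 20573 probes, and called probes had adjusted p under 0.05. The number of arrays limits precision, and 17253 to 19774 probes were detected per array. Control spots were left out of the tests. The detection p-value of the WT1-intermediate array of pair 29 was computed from its negative controls. The tables held 83 other columns of values per sample, such as bead counts and errors, that were not used.

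Same-numbered arrays in the column names had correlated deviations (0.352, 0.338 and 0.468, against -0.386 to 0.034 for other pairs), so pairs were used as a block in alternatives. The pairing comes from the column names and these correlations. The labels call the WT1-intermediate array of pair 29 number 30.

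Each gene was read from its brightest tested probe. Besides the dimmer probes given above, a dimmer probe of the same sign lacked a call for Csf1r, Gpnmb, Gusb, Hpgds and Itgb4. The same held for Mfap2, Pla1a, Psap, Tbxas1 and Tlr13. Named genes were the 15 largest rises and falls among called genes whose groups did not overlap, called members of gene lists, up to 3 further members by lowest p, and genes named in the study's text on this comparison. Members and lists were chosen with earlier results of these data known. Of the listed genes, 827 were matched by symbol, 28 by Entrez number and 4 by older symbol, and 17 were not on the array. On simulated data the fit recovered 60 of 100 probes changed by 1 on the log2 scale and 98 of 100 changed by 2. It made 3 false calls. The simulated noise was drawn independently for each probe and array, without the correlation within pairs. These numbers therefore need not hold for the real arrays. Alternatives covered scaling, background, filters, arrays in the fit, blocks, array weights and each array left out.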

Additional observations from a re-analysis of the deposited data

How the results depend on the processing

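Against 730 calls (186 higher, 544 lower), median scaling gave 1208 (1073 lower) and median scaling over all gene probes, chosen after seeing the data, 2684 (2563 higher, 121 lower). No background correction gave 473 (287 lower), no filter 335 (115 higher, 220 lower), the in vivo arrays alone 339 (58 and 281) or, normalized on their own, 358 (61 and 297). Detection on all 9 arrays gave 106 higher, and 445 calls reached 2-fold. With the replicate pairs as a fixed block there were 1656 calls (603 and 1053), as a random block 1796 (747 and 1049), and by the label numbers 1752 (720 and 1032). Leaving out single arrays gave 335 to 867 calls, 54 to 260 higher and 277 to 662 lower, with 335 without WT1-high 8, 368 without WT1-high 29, 340 without WT1-intermediate 1 and 456 without WT1-negative 14, and with 101 and 93 higher without WT1-negative 3 and 14. Falls made up 74.5% of the calls, and 88.8% under median scaling, 4.51% under median scaling over all gene probes, 60.7% without background correction, 63.6% with the fixed block, 58.4% with the random block, 58.9% by label numbers and 63.3% without WT1-intermediate 8. These scalings moved the median difference of all probes from 0.05 to -0.18 and 0.45. Col1a1 (-0.13) changed sign, to 0.57 under median scaling over all gene probes and to 0.16, 0.15 and 0.04 without WT1-high 1, WT1-intermediate 8 and WT1-intermediate 30, over a range of -0.59 to 0.16 with single arrays left out. Of 115 named genes with a call, 39 kept it under every setting, 76 lost it under at least 1 and 0 changed sign, and of 9 without a call 6 gained one. The cause was not tested. Signal close to background limits what dim probes can show.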
